A study of Mus musculus with 4 samples.

Results

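Caveolae are small flask-shaped pits of the plasma membrane that are abundant in muscle cells. The transcripts of their building blocks were followed here in mouse C2C12 myoblasts depleted of Fxr1. Of the 9 genes, Cav2 showed the largest difference between siFxr1 and siControl. At its brighter probe it was 4.09-fold lower in siFxr1, a log2 difference of -2.03 (SE 0.30, n = 2 per condition). Cav1, Ptrf, Prkcdbp, Ehd2 and Pacsin3 were lower by between 0.43 and 0.91 on the log2 scale at their brightest probes, while Cav3, Sdpr and Murc overlapped between the conditions.

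The members are the 3 caveolins Cav1, Cav2 and Cav3, the 4 cavins Ptrf, Sdpr, Prkcdbp and Murc, and the accessory proteins Ehd2 and Pacsin3. Ptrf, Sdpr, Prkcdbp and Murc are the names used by the array for Cavin1, Cavin2, Cavin3 and Cavin4. Members were taken by gene name, which gave 12 of the 55681 probes and 21 of the 59305 spots that were not controls. Cav2, Ptrf and Ehd2 have 2 probes each and the other 6 genes have 1. The set was chosen by name around Cav2, and Cav2 itself was selected on its measured difference between siFxr1 and siControl, since the study lists it among its changed transcripts. The members' values between the conditions are therefore a description. Where calls of the fit over all probes are given for this contrast, they describe its output and are no independent test of the members.

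C2C12 is a clonal line of mouse myoblasts that grows in culture and can form myotubes. Cells received siRNA against an exon shared by all Fxr1 transcripts (siFxr1) or a purchased random siRNA with the same GC content (siControl) by transient transfection, in 2 experiments, and no other treatment or allele separates the groups. Total RNA was labelled with Cy3 and hybridised to 1 array per sample, so 4 arrays were measured, and the arrays of an experiment shared a slide. The RNA integrity number was 8 in siFxr1 of experiment 1 and 9 in the other samples. Values are log2 signals normalized between the arrays. SEs between the conditions come from a fit with the condition alone. Like the SDs, they include the difference between the experiments. Because probes differ in how strongly they bind, levels were compared between arrays and never between probes. RNA came from whole cultures, so fewer cells with a transcript and less of it per cell cannot be told apart. The methods call the experiments biological replicates, and p-values measure only the spread between these samples.

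The brighter Fxr1 probe had a signal of 13.84 and 13.71 in siControl and of 10.15 and 10.77 in siFxr1, in the order of the experiments. Of the 5 myoblast markers, Myod1, Des, Cdh15 and Itga7 were well above background in both conditions and Myf5 was not. All 12 caveola probes were well above background on all 4 arrays, and 0 spots were saturated.

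Caveolins are hairpin membrane proteins that assemble into the scaffold of the pit. Cav1 and Cav2 form mixed oligomers in many cell types, and Cav2 depends on Cav1 to reach the surface. Cav3 is the muscle caveolin, which increases as myoblasts differentiate. Cavins form a coat on the cytoplasmic side: Cavin1 is required for caveolae, and Cavin4 is restricted to muscle. The ATPase Ehd2 sits at the neck of the pit, and the F-BAR protein Pacsin3 binds curved membrane.

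Cav2 and Cav1 are neighbouring genes on chromosome 6. The 250 bases before the RefSeq transcription start (GRCm38.p6) are shown for this pair, whose differences between the conditions were unequal in size, and for the muscle members Cav3 and Cavin4. Capitals mark E-boxes (CANNTG, which reads the same on both strands), the motif bound by myogenic factors such as MyoD. A start is listed for 8 of the 9 genes, and the first listed start was taken for Cav1.
Cav2 (chr6:17280935-17281184, plus strand): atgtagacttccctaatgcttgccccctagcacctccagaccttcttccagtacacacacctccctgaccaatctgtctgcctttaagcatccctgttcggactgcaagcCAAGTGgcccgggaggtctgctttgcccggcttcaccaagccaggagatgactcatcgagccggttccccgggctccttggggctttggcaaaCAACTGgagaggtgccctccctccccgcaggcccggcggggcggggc
Cav1 (chr6:17306085-17306334, plus strand): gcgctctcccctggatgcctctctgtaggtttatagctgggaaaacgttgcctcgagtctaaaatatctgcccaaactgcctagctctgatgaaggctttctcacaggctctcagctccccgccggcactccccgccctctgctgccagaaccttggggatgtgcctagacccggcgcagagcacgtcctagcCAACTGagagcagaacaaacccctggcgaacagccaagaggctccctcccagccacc
Cav3 (chr6:112459255-112459504, plus strand): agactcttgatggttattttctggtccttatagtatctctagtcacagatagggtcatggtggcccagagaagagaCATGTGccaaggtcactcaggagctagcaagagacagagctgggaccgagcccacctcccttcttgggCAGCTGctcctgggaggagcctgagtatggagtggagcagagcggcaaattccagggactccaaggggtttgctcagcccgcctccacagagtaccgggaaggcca
Cavin4 (chr4:48663264-48663513, plus strand): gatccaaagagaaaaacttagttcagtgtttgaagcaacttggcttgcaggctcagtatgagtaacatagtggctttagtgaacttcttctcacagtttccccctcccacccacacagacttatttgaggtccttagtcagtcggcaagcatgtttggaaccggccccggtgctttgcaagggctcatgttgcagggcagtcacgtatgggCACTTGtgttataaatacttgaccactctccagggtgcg
The Cav2 and Cav3 stretches hold 2 E-boxes each, and those of Cav1 and Cavin4 hold 1 each. An E-box occurs in 66.2% of the 32851 mouse promoter stretches of this length, so its presence does not set these genes apart. The GC box GGGCGG, searched on both strands, occurs once in Cav2 and in Cav1 and has 0 matches in Cav3 and Cavin4, against a share of 32.7% of all stretches. Before the other listed start of Cav1, which is not shown, the GC box has 0 matches. A MEF2 site has 0 matches in the 4 sequences and is found in 2.92% of all.

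Cav2 was low in both siFxr1 samples. Its brighter probe (A_51_P279552, NM_016900, chromosome 6 of mm9, 17238393 to 17238452) had a signal of 10.80 in siControl and 8.59 in siFxr1 in experiment 1. In experiment 2 the signal was 10.18 in siControl and 8.32 in siFxr1. The siFxr1 signal was thus 21.7% of siControl in experiment 1 and 27.6% in experiment 2, and the siFxr1 and siControl arrays did not overlap. The siControl arrays averaged 10.49 ± 0.43 (SD, n = 2) and the siFxr1 arrays 8.46 ± 0.19 (SD, n = 2), so the difference of -2.03 exceeded both SDs.

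The Cav2 probe is printed in 10 spots, which give the technical error within an array. In siControl the spots had a median of 10.82 and a maximum of 10.85 in experiment 1, and lay between 10.09 and 10.25 in experiment 2. In siFxr1 they lay between 8.47 and 8.76 in experiment 1, where 1 spot was left out as an outlier, and between 8.23 and 8.45 in experiment 2. The SD among spots was at most 0.09, so spots of an array lay far closer together than the arrays of different conditions. Spots are repeats of a single sample and not replicates.

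**Figure D1:**
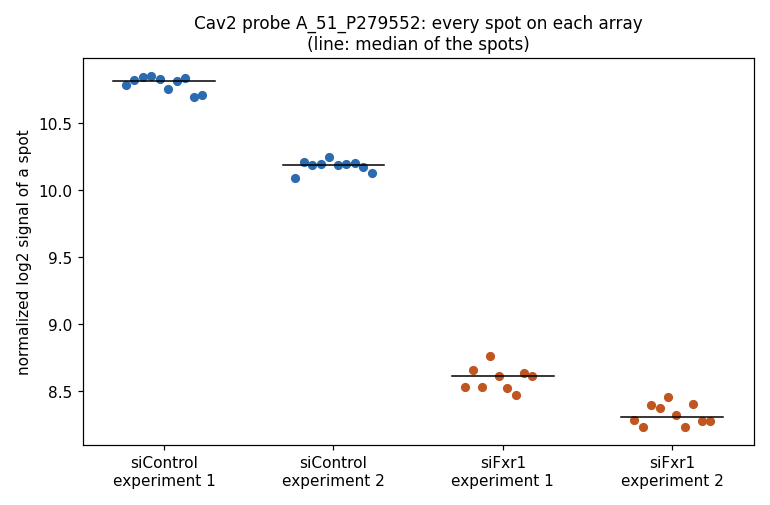
Normalized log2 signal of every spot of the Cav2 probe A_51_P279552 (vertical axis) on each of the 4 arrays (horizontal axis), with the median of the spots as a line. The siFxr1 spots reach at most 8.76 and the siControl spots start at 10.09.

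The other Cav2 probe (A_55_P2066996, 17237331 to 17237390, 1062 bases away) was dimmer and went the same way. Its signal was 8.06 and 7.47 in siControl and 6.13 and 5.96 in siFxr1, a log2 difference of -1.72 (SE 0.28). Its size depends on the background treatment, and in the authors' table the difference at this probe was -0.99. Of 23485 probes clear of background on every array, the brighter Cav2 probe ranked 21 from the most negative difference. Cav2 was selected on this difference, so its rank is a description only.

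Cav1, the neighbour and partner of Cav2, differed less. Its probe (A_55_P2126662, NM_007616, chromosome 6, 17289414 to 17289473) had a signal of 9.53 and 9.48 in siControl and of 9.23 and 8.64 in siFxr1. The difference was -0.57 (SE 0.28), with -0.30 in experiment 1 and -0.85 in experiment 2. Both siFxr1 arrays lay below both siControl arrays, and the size of the mean difference rested mainly on the siFxr1 sample of experiment 2. Without that sample the difference was -0.27. The Cav2 difference minus the Cav1 difference was -1.91 in experiment 1 and -1.01 in experiment 2.

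Cav3, the muscle caveolin, had no common direction between the conditions. In experiment 1 its probe (A_51_P255304, NM_007617, chromosome 6, 112422739 to 112422798) had a signal of 10.33 with siControl and 11.62 with siFxr1. In experiment 2 it had 9.23 with siControl and 8.94 with siFxr1. The difference between the conditions was 1.29 in experiment 1 and -0.29 in experiment 2, with a mean of 0.50 (SE 1.15) that was below both SDs. With the experiment in the fit the SE was 0.49. With 1 sample left out, the mean ranged from -0.84 to 1.84.

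**Figure D2:**
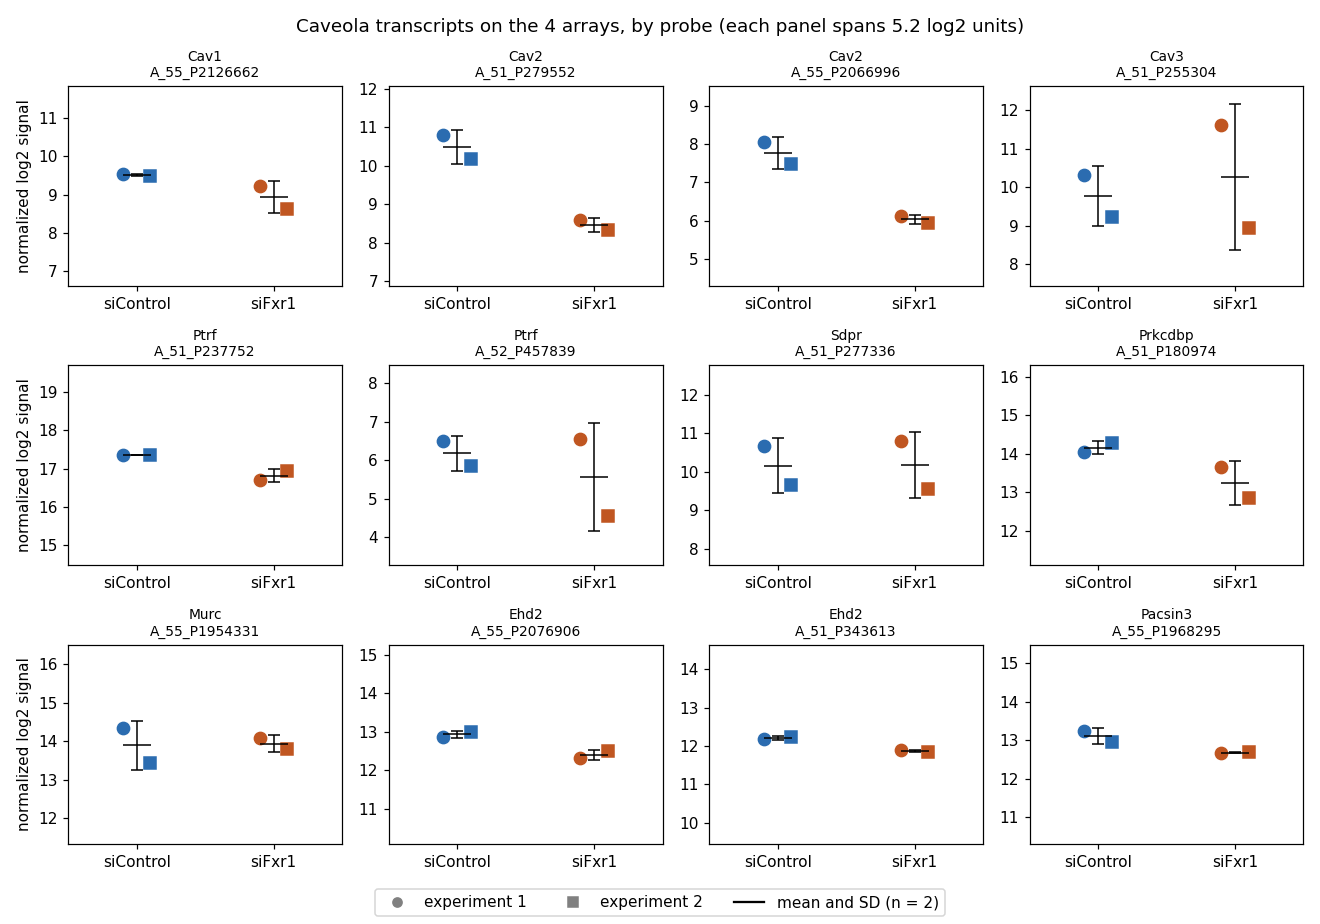
Normalized log2 signal (vertical axis) of each of the 12 caveola probes in siControl and siFxr1 (horizontal axis), with circles for experiment 1, squares for experiment 2, and the mean and SD of the 2 arrays in black. Every panel spans the same number of log2 units, and the conditions are apart for Cav2 and overlap for Cav3, Sdpr, Murc and the dim Ptrf probe.

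Of the cavins, Ptrf and Prkcdbp were lower in siFxr1. The bright Ptrf probe (A_51_P237752, NM_008986, chromosome 11, 100818129 to 100818188) had a signal of 17.35 in siControl of both experiments and of 16.70 and 16.93 in siFxr1. The siFxr1 signal was 63.6% of siControl in experiment 1 and 74.6% in experiment 2, a log2 difference of -0.54 (SE 0.17). The other Ptrf probe (A_52_P457839), located 13588 bases away, was dim and less clear. Its signal was 6.51 and 5.86 in siControl and 6.55 and 4.56 in siFxr1. Its mean difference of -0.63 (SE 0.83) had the same sign as that of the bright probe, but it was 0.04 in experiment 1 and -1.29 in experiment 2, and the conditions overlapped.

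Prkcdbp, or Cavin3, is named for its binding to protein kinase C delta. Its probe (A_51_P180974, NM_028444, chromosome 7, 112629224 to 112629283) had a signal of 14.04 and 14.28 in siControl and of 13.65 and 12.84 in siFxr1. The difference was -0.91 (SE 0.36) and exceeded both SDs, which were 0.17 for siControl and 0.57 for siFxr1. It was -0.39 in experiment 1 and -1.43 in experiment 2. Without the siFxr1 sample of experiment 2 it was -0.51, and without that of experiment 1 it was -1.31.

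Sdpr (Cavin2, which helps bend the membrane) and Murc (Cavin4) showed no common direction. The Sdpr probe (A_51_P277336, NM_138741, chromosome 1, 51359651 to 51359710) had a signal of 10.66 with siControl and 10.79 with siFxr1 in experiment 1, and of 9.66 and 9.56 in experiment 2. Its mean difference between the conditions was 0.01 (SE 0.64, or 0.20 with the experiment in the fit). The Murc probe (A_55_P1954331, NM_026509, chromosome 4, 48686163 to 48686222) had 14.35 with siControl and 14.09 with siFxr1 in experiment 1, and 13.45 and 13.79 in experiment 2. Its mean difference was 0.04 (SE 0.40, or 0.26 with the experiment in the fit). For Sdpr and Murc alike the difference stayed below both SDs and had opposite signs in the experiments.

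Ehd2 and Pacsin3, which act at the neck and on the curved membrane, were modestly lower in both experiments. The brighter Ehd2 probe (A_55_P2076906, ENSMUST00000098799, chromosome 7, 16532351 to 16532410) had a signal of 12.87 and 13.00 in siControl and of 12.31 and 12.50 in siFxr1, a difference of -0.53 (SE 0.17). The other Ehd2 probe (A_51_P343613, NM_153068, 16535288 to 16535347) had 12.18 and 12.25 in siControl and 11.88 and 11.85 in siFxr1, a difference of -0.35 (SE 0.15). Both Ehd2 probes thus separated the conditions. The Pacsin3 probe (A_55_P1968295, NM_028733, chromosome 2, 91104768 to 91104827) had 13.25 and 12.95 in siControl and 12.67 and 12.68 in siFxr1, a difference of -0.43 (SE 0.19) with no overlap.

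**Figure D3:**
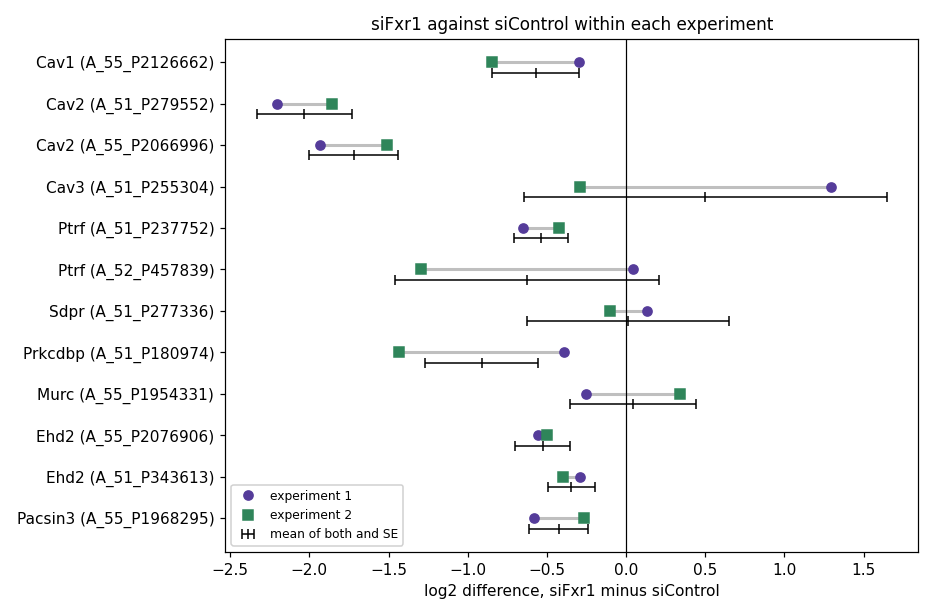
Log2 difference, siFxr1 minus siControl (horizontal axis), of the 12 caveola probes (vertical axis) in experiment 1 (circles) and experiment 2 (squares), with the mean and its SE from the fit in black. Of the 12 probes, 8 lie below 0 in both experiments, with the Cav2 probes furthest at -2.03 and -1.72.

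Over the members, 8 of the 12 probes were lower in siFxr1 in both experiments, against 31.1% of the 23485 probes clear of background throughout. In the same 8 both siFxr1 arrays lay below both siControl arrays, against 14.5%. The 2 Cav2 probes were at least 2-fold lower in both experiments, against 1.30%. The median difference was -0.53 for the 12 probes and 0.01 for all. Since the set was built around this contrast and 3 genes count through a pair of probes, nothing is read from these shares. In the limma fit of siFxr1 against siControl, 0 of the 12 were called at a B value above 0 (background 0%) or at an adjusted p under 0.05 (background 0%). The fit called 0 of all 55681 probes, those of Fxr1 included, so 0 calls do not mean that a gene was unchanged. At an unadjusted p under 0.05 there were 4 of the 12 and 2764 of all probes.

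Whether limma called Cav2 differed between the fits, and since Cav2 was selected on this contrast, none of them is a test of it. With the experiment as a block, 0 members were called, and the B value of the brighter Cav2 probe was -2.47. With the block and a filter on dim probes, both Cav2 probes had a B value above 0, at 1.63 and 0.63, while 0 were called with the filter alone. With the block and the median signal minus local background, the brighter probe was called at 2.48 and the other was not, at -0.07. When each siFxr1 array was set against each siControl array and the 4 ratios were taken as observations, the B values were 1.39 and 1.00, but the ratios share arrays, which understates the error. These fits called 1.39%, 0.62% and 1.99% of the probes tested, in the same order, and the fits with the block and another change were chosen after seeing the data.

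The contrast between the experiments was not used to choose the members, and it can be fitted with the condition in the model. Experiment and slide cannot be told apart in it. Each experiment has a single array of each condition. The SE and p-value therefore measure how alike the difference was in siControl and siFxr1, and not how much experiments vary. Cav3 was 3.72-fold higher in experiment 1, a log2 difference of 1.89 (SE 0.49, limma adjusted p = 0.194), with 1.10 in siControl and 2.69 in siFxr1. Sdpr was 2.17-fold higher, a difference of 1.12 (SE 0.20, limma adjusted p = 0.141), with 1.00 in siControl and 1.23 in siFxr1. Murc differed by 0.60 (SE 0.26, limma adjusted p = 0.346). For these 3 genes both arrays of experiment 1 lay above both arrays of experiment 2, and the dim Ptrf probe did the same.

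The count of 4 of 12 probes without overlap lies close to the 31.7% found among all probes well above background, and so is no result about caveola genes. With limma, 0 of the 12 reached an adjusted p under 0.05 (background 0%) and 0 had a B value above 0 (background 1.19%), while 3 had an unadjusted p under 0.05, as had 11172 of all 55681 probes. Cav3 reached an adjusted p under 0.05 in 5 of the 8 alternative fits, at 0.00141 to 0.214 over all 8, and Sdpr in 4 of 8, at 0.0211 to 0.110. One of these was the fit restricted to probes well above background, where the adjusted p was 0.0292 for Cav3 and 0.0297 for Sdpr. That fit called 4342 of its 25540 probes at an adjusted p under 0.05. The other fits with a call for Cav3 or Sdpr called 3686 to 5846 of 55681 probes. Nothing about caveola genes is read from these calls. Cav2 differed by 0.44 (SE 0.22) between the experiments at its brighter probe.

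**Figure D4:**
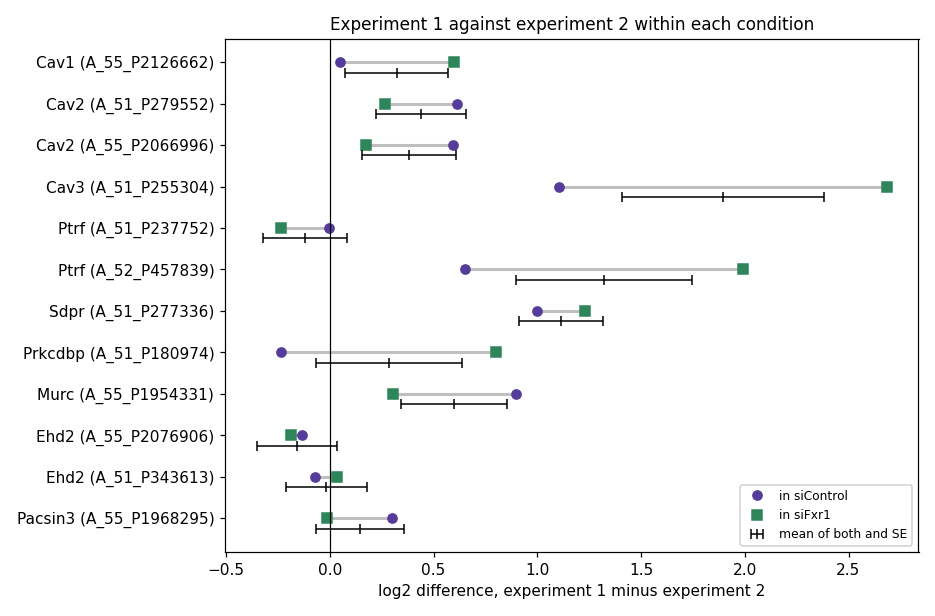
Log2 difference, experiment 1 minus experiment 2 (horizontal axis), of the 12 caveola probes (vertical axis) within siControl (circles) and within siFxr1 (squares), with the mean and its SE in black. Cav3 at 1.89 and the dim Ptrf probe at 1.32 lie furthest to the right, followed by Sdpr at 1.12.

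Muscle differentiation transcripts had higher signals in experiment 1, as Cav3 had, although limma called 0 of them between the experiments at an adjusted p under 0.05 and 2 at a B value above 0. Of 13 such markers, 12 were well above background, and all 12 had the higher signal in experiment 1 whichever siRNA was used, with a median difference of 2.15. The same held for 7 of the 12 caveola probes and for 42% of the 23485 probes clear of background. In experiment 1 the summed linear signal of all 13 markers, the dim Mef2c included, was 498636 with siControl and 412061 with siFxr1. In experiment 2 it was 108254 and 88918. Mylpf, a fast myosin light chain, differed by 3.53 (SE 0.23, limma adjusted p = 0.108). Of 14 sarcolemma and repair genes above background, 10 were higher in experiment 1 and 3 in experiment 2 with either siRNA, and the median difference was 1.07. Trim72, a membrane repair protein that binds Cav3, differed by 2.78, and dysferlin (Dysf), also a Cav3 partner, by 1.78. Utrophin (Utrn), a relative of dystrophin, went the other way at -2.25. The part of differentiation in the Cav3 and Sdpr values was not tested.

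Between the conditions, limma gave 0 calls over all probes, and so 0 in each of the other lists. At an unadjusted p under 0.05 it gave 1 gene among the flotillin and clathrin list and 1 among the cholesterol list. The muscle markers had a median difference of -0.12, with 6 of 12 lower and 4 higher in siFxr1 in both experiments. Of the 5 paralogs of Ehd2 and Pacsin3, 2 were lower in both experiments, Ehd3 by -0.47 and Ehd1 by -0.42, and 0 were higher in both. Among 12 flotillin, clathrin, adaptor and dynamin genes, 7 were lower in both experiments and the median was -0.23. Of the 23485 probes clear of background, 31.1% were lower in both experiments, and nothing is read from the counts of these lists. Flot1, a raft scaffold protein outside caveolae, had the largest difference of that list. Its signal was 13.00 and 13.37 in siControl and 11.71 and 11.47 in siFxr1, a difference of -1.60 (SE 0.23). Both siFxr1 arrays lay below both siControl arrays, as they did for 14.5% of the probes clear of background.

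Signalling proteins reported in caveolae had a median of 0.24 over 10 genes, with 2 lower and 3 higher in both experiments. The fatty acid transporter Cd36 differed by 1.56 (SE 1.35) and the insulin-regulated glucose transporter Slc2a4 by -0.95 (SE 0.42). Cholesterol, which caveolae require, is made by enzymes of the mevalonate pathway, and the 13 genes of its synthesis and uptake had a median of 0.15, with 3 lower and 5 higher. Dhcr7, the last enzyme of a branch of cholesterol synthesis, differed by -1.21 (SE 0.22), and Idi1 by -1.13 (SE 0.42).

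**Figure D5:**
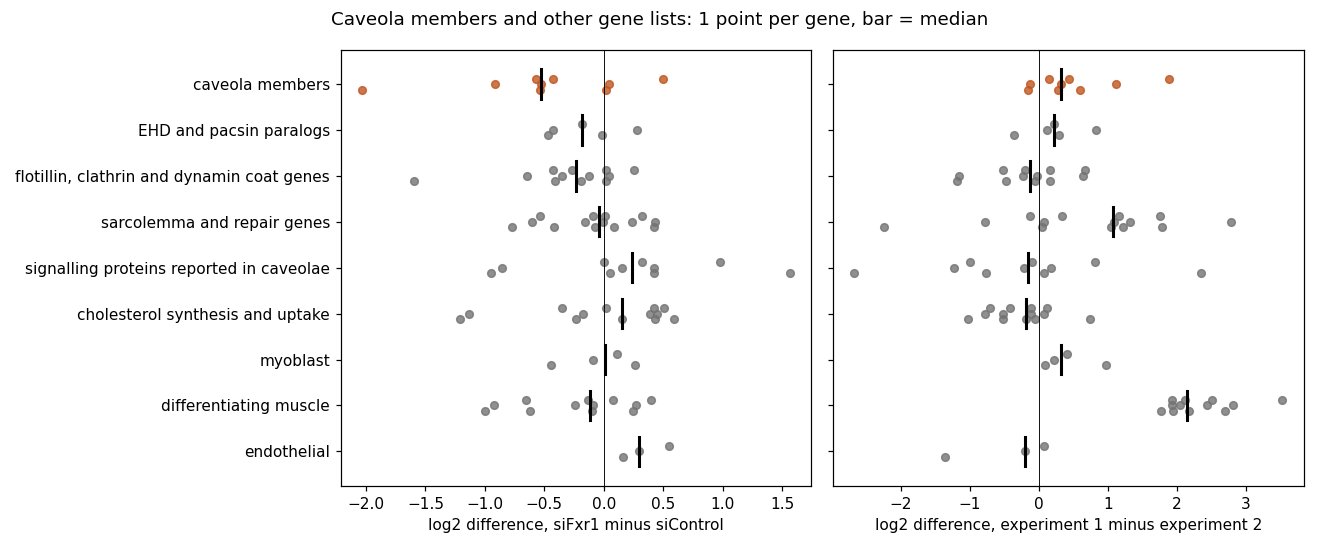
Log2 differences of single genes (points, 1 per gene) in the caveola set and in the other gene lists with at least 3 genes above background (vertical axis), between the conditions (left) and between the experiments (right), with the median of each list as a bar. Cav2 at -2.03 is the leftmost point of the left panel, and the muscle markers have a median of 2.15 in the right panel.

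Caveolae are also abundant in endothelial and fat cells. Of 5 endothelial markers, 3 were well above background, and their summed signal, dim genes included, was 3170 to 3463 in siControl and 3754 to 4426 in siFxr1. Kdr made up most of this sum. Kdr and Pecam1 were higher in siFxr1 in both experiments, while Cdh5 differed by -0.37 in experiment 1 and 0.70 in experiment 2. Tek and Emcn were not well above background, apart from Tek on 1 array. Of 5 fat cell markers only Fabp4 was above background, while Adipoq, Plin1, Lep and Cidec were not. Fabp4 made up most of the summed signal, which was 282 to 397 in siControl and 395 to 1155 in siFxr1. Of 4 macrophage markers only Csf1r was above background in full, and it made up most of the summed signal of 895 to 1227 in siControl and 1461 to 2253 in siFxr1. Cd68 was above background on 2 arrays and had the lower signal in siFxr1, with a mean difference of -0.92 (SE 0.38). Within either experiment each of these 3 sums was higher in siFxr1, mostly through Kdr, Fabp4 and Csf1r. C2C12 is a clonal myoblast line, and the sums give levels of transcripts and do not measure amounts of such cells. Their relation to the caveola values was not tested.

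The genes most like a member were found by the distance between profiles over the 4 arrays, each centred on its own mean, among 17811 other genes with signal clear of background on every array. Nearest to Cav2 were Gm8878, Armcx5, Cyb5d2, Plcb4 and Chmp5, at distances of 0.20 to 0.31 log2 units. Among the nearest to Cav3 were Gm4026, Gdf5, Gm5088 and Prr7, at 0.18 to 0.42. No other caveola member was among them. With 4 arrays the profiles are short, and these are descriptions only.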

How the data were processed

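C2C12 total RNA after siFxr1 or siControl was hybridised to 4 single-colour arrays. The authors deposited the spot intensity of each array from Agilent Feature Extraction 10.7.3.1, background-corrected within the array and not normalized between arrays, and a table of quantile-normalized intensity, used as an alternative. Using R 4.3.3 and limma 3.58.1, these corrected values were log2-transformed and quantile-normalized across the non-control spots. Outlier spots (145 to 177 per array) were removed and the spots of a probe averaged. A probe was well above background when 0.5 or more of its spots carried that mark, which held for 45.4% to 52.9% of probes per array. limma (lmFit and eBayes) was fitted across all probes, with the condition alone or, for the experiments, with both terms. Calls required a B value above 0 or a Benjamini-Hochberg adjusted p under 0.05. Fits were tested on simulated data with known shifts. The values simulated for the conditions held no difference between the experiments, so that test does not show how the condition fit performs on these arrays. Precision is limited by having only 2 arrays of each condition.

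Samples with the same number come from the same experiment and slide according to the labels. Their deviations from the condition means correlated at 0.741 over 23485 probes, so the numbers pair the samples. The members and gene lists were chosen with earlier results of these data known. All members are named. From each list, genes came from the 3 with the largest difference between conditions or experiments, and the 5 nearest profiles were taken for Cav2 and Cav3, of which 1 is not reported here. Where a gene has several probes, the brightest represents it. Probe positions are the array's, on mm9. Promoter sequences come from RefSeq (GRCm38.p6).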

Additional observations from a re-analysis of the deposited data

How the results depend on the processing

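The 8 probes without overlap (those of Cav1, Cav2, Prkcdbp, Ehd2 and Pacsin3, and the bright Ptrf probe) were lower in siFxr1 under all 15 alternatives. Most of these could not have changed the sign. The filter, the trended prior, the block and the 4 ratios leave the difference as it is. Leaving out 1 array cannot turn it where the conditions do not overlap. Only the alternatives with another signal or normalization could have done so. The brighter Cav2 difference ranged from -2.34 to -1.73. The difference of the bright Ptrf probe ranged from -0.70 to -0.40, and that of the dimmer Ehd2 probe from -0.38 to -0.23. The number of member probes with a mean difference below 0 was 9 of 12, and 8 to 12 with 1 array left out in turn. With the replicate block alone, 0 probes were called between the conditions, as without it, whereas the block together with another change gave calls. The fit to the 4 ratios called 1107 probes by B and 1064 by adjusted p. With the block and a filter on dim probes, chosen after seeing the data, the counts were 354 and 280, both Cav2 probes among them, against 0 with the filter alone, and with the block and the median signal minus local background, also chosen after seeing the data, 345 and 105, with the brighter Cav2 probe among them, against 0 without the block. Between the experiments, 5846 probes had an adjusted p under 0.05 and 3202 a B value above 0 after scaling to the 75th percentile, against 0 and 664. The counts were 4471 and 1921 with normexp, 4197 and 1819 without background correction, and 3686 and 1717 with the median minus local background. They were 5450 and 2240 with the authors' table, and 4342 and 1284 of 25540 probes with the filter. A trended prior gave 308 by adjusted p. Scaling to the 75th percentile moved the median of all probes by over 0.1, from 0.07 to 0.18, and turned the small experiment differences of Ptrf (0.46) and of both Ehd2 probes (0.20 and 0.26) positive. The dimmer Ehd2 probe was also positive with normexp (0.0218), without background correction (0.0236), with the median minus background (0.0276) and in the authors' table (0.0269). With 1 array left out, the experiment difference ranged from -0.0692 to 0.0364 for that probe, from -0.0127 to 0.301 for Pacsin3 and from -0.24 to 0.803 for Prkcdbp. The experiment contrast has no test with an array left out. The cause was not tested for these changes. The filter also lowers the number of probes in the fit, and the part of that was not tested.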
